A study of Mus musculus with 21 samples.

Results

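The Myc family was followed here as 5 genes, *Myc*, *Mycn*, *Mycl*, *Max* and *Mga*, chosen by symbol from the 51467 genes of the count tables; all 5 passed the filter on low counts that left 14518 tested genes. The measurements came from mouse embryonic stem cells (ESCs) that were wild type or carried a CRISPR-Cas9 knockout of *Ddx6* (*Ddx6* KO), which encodes an RNA helicase of the mRNA decapping and miRNA silencing machinery. There were 3 wild-type cultures and 4 *Ddx6* KO cultures, the latter being 2 cultures of each of 2 clones. One clone carries an insertion of a single nucleotide and the other a large deletion, so that every KO value rests on these 2 clones. All cultures were kept in serum with LIF and 2i (PD0325901 and CHIR99021), without a differentiation step, and all were labeled with 500 µM 4-thiouridine (4sU) for 30 min. The RNA of each culture was then divided, so that biotinylated 4sU RNA (nascent RNA) and total RNA were both sequenced, giving 14 libraries.

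The proteins of this family bind DNA as pairs. MYC, MYCN and MYCL each pair with MAX and activate genes for growth, nucleolar function and metabolism, whereas proteins of the MXD group pair with the same MAX and repress. MGA also pairs with MAX but belongs to the Polycomb complex PRC1.6, which keeps germline genes silent in ESCs. *Mycn* and *Myc* are the members best known in pluripotent cells, and the *Myc* mRNA is a classic example of a short-lived transcript.

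Libraries held between 2441639 and 3570192 counts for 4sU RNA and between 5724179 and 7369651 for total RNA, and CPM are counts scaled to a library sum of 1000000. A count of 3, taken as the floor, corresponds to 1.23 CPM in the smallest 4sU library and to 0.524 CPM in the smallest total RNA library, which covers counting error only. *Ddx6* total RNA was 314, 357 and 363 CPM in wild type and 59.6, 70.8, 23.9 and 22.5 CPM in the KO cultures, so its groups did not overlap. The summed level of 6 ESC markers was 2851 to 2950 CPM in wild-type and 3737 to 3947 CPM in KO total RNA. In the fit described below, *Nanog* (log2 fold change 0.59), *Klf4* (0.37), *Esrrb* (0.22) and *Zfp42* (0.16) were called as higher in total RNA. *Pou5f1* (0.08) and *Sox2* (-0.05) were not called there. In nascent RNA, *Sox2* (-0.65) was called as lower, and *Klf4* (0.03) was not called. *Nanog* (0.51), *Zfp42* (0.35), *Pou5f1* (0.32) and *Esrrb* (0.24) were called as higher in nascent RNA. In total over 4sU RNA, *Sox2* (0.60) and *Klf4* (0.34) were called as higher, *Pou5f1* (-0.25) as lower, and the others were not called. Of 5 feeder fibroblast markers, *Col1a2*, *Lum* and *Postn* stayed under 1 CPM in every library, and the sum of all 5 was 3.15 to 5.34 CPM in wild type and 11.3 to 13.1 CPM in KO total RNA. The 3 primed epiblast markers summed to 17.6 to 20.8 CPM in wild type and to 5.31 to 9.01 CPM in KO total RNA. Endoderm (3 genes), mesoderm (2 genes) and neural markers (2 genes) summed to at most 7.88, 1.07 and 19.2 CPM in total RNA. The part of these cell type markers in the results that follow was not tested, and in such bulk RNA fewer cells of a type and less RNA per cell cannot be told apart.

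Of the 5 members, *Mycl* and *Mycn* fell and *Mga* rose in the nascent RNA of *Ddx6* KO ESCs, *Mycl* alone changed in total RNA, and *Mycn* rose while *Mga* fell in mRNA stability. Stability is used here for the genotype difference in total RNA over 4sU RNA. *Max* and *Myc* passed the test in no contrast. A change was called at an adjusted p under 0.05 in edgeR's quasi-likelihood test over all tested genes. That rule called 20.6% of tested genes as higher and 21% as lower in nascent RNA, 19.5% as higher and 31% as lower in total RNA, and 3.79% as higher and 8.58% as lower in stability. Called genes were therefore common, and 3 of 5 members in nascent RNA, 1 of 5 in total RNA and 2 of 5 in stability are few genes to set against those shares. The median log2 fold change of the 5 members was 0.21 in nascent RNA, 0.04 in total RNA and 0.38 in stability, beside 0.00, -0.10 and -0.09 over all tested genes. With the further bound of an absolute log2 fold change above 1, which the study used, *Mycl* was called in nascent and in total RNA and no member in stability, and that bound was passed by 10.9%, 10.1% and 1.08% of tested genes.

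**Figure D1:**
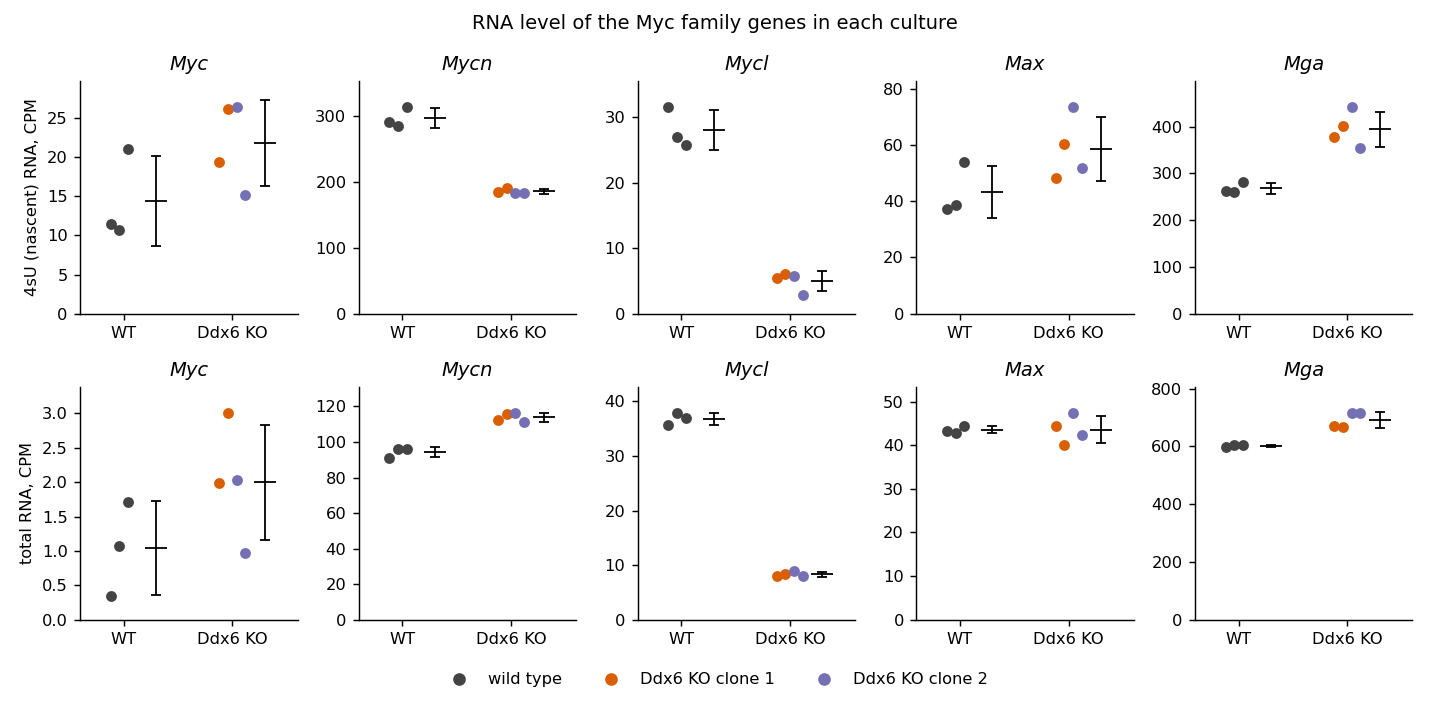
Level of each Myc family gene in CPM (vertical axes, linear, from 0) in 4sU RNA (top) and total RNA (bottom); points are the 3 wild-type and 4 *Ddx6* KO cultures, and the crossbars give the mean and SD. *Mycl* is lower in every KO culture in both rows, *Mycn* is lower only in the top row, where its KO cultures lie between 183 and 190 CPM, and the wild-type and KO points of *Myc* and *Max* overlap.

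*Mycn* (ENSMUSG00000037169, minus strand, chr12:12936093-12941914 of GRCm38) encodes N-MYC. The RefSeq promoter of *Mycn* is shown because its nascent RNA changed in every KO culture. Each promoter runs from 250 bases before to 50 after the annotated start, here chr12:12941787-12942086 of GRCm38.p6 on the minus strand, and the capitals mark matches to the E2F motifs TTTGGCGC and TTTCGCGC.
*Mycn* promoter: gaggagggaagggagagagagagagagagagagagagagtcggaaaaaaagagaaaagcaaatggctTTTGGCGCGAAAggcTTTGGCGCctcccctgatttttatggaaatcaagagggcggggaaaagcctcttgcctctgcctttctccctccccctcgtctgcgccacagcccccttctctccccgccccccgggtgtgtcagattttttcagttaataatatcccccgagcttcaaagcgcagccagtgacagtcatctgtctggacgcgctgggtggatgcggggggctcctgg
Both strands were searched, and TTTGGCGC matched at 2 places, of which the first, at -183 from the start, overlaps the single match to TTTCGCGC on the other strand. TTTGGCGC was found in 0.537% and TTTCGCGC in 0.318% of 27025 promoters, taking 1 promoter per gene. The E-box CACGTG, the motif that MYC and MAX pairs bind, had no match in this window and was found in 7.24% of promoters. These matches describe the letters and not a bound site.

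In 4sU RNA, *Mycn* was at 292, 285 and 314 CPM in wild type and at 185, 190, 183 and 184 CPM in *Ddx6* KO. Every KO culture lay below every wild-type culture, and the 4 KO cultures lay close together. The log2 fold change was -0.88 ± 0.06 (SE; adjusted p = 2.1e-18), which is 1.84-fold lower. In total RNA, *Mycn* was at 91.2, 95.9 and 95.9 CPM in wild type and at 112, 116, 116 and 111 CPM in KO. The groups did not overlap in total RNA either, but in the opposite order, and the fitted log2 fold change of 0.11 ± 0.06 was not called (adjusted p = 0.121). The CPM above are not scaled by the TMM factors that enter the fit, which were 1.03 to 1.07 in KO and 0.925 to 0.942 in wild-type libraries. With TMM factors set within each assay, the median total RNA change of all genes moved from -0.10 to -0.01 and that of *Mycn* became 0.21 (adjusted p = 0.00431). Library size as the only scaling (0.27, adjusted p = 0.000213), no filter beyond 1 count (0.22, adjusted p = 0.00961) and DESeq2 (0.14, adjusted p = 0.0441) called it as well.

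The total-over-4sU ratio puts both libraries of a culture on 1 scale, as log2 of TMM-scaled CPM with a pseudocount of 0.5 CPM. For *Mycn* it was -1.69, -1.58 and -1.71 in wild type and -0.68, -0.69, -0.60 and -0.69 in KO. The groups were separated by much more than their spread, with means of -1.66 ± 0.07 (SD, n = 3) and -0.67 ± 0.04 (SD, n = 4). Groups that do not overlap in this ratio were found for 22.9% of tested genes. That share was not counted for 4sU or total RNA alone, so separation there is not read as particular to a member. The exact two-sided permutation test over cultures gave p = 0.0571, the smallest that 3 cultures against 4 allow. The fitted stability change was 1.00 ± 0.09 (adjusted p = 2.2e-12), just short of the bound of 1 before rounding, and it was the 404th highest of 14518 genes. *Mycn* thus moved from percentile 17.9 of the tested genes' ratios in wild type to percentile 31.3 in KO.

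The ESC-enriched miRNAs of the miR-290 and miR-302 clusters share a seed, and their target sites in members are shown because *Ddx6* acts in miRNA silencing. Capitals mark the seed (bases 2 to 8) in the miRNAs and the matching 6 bases GCACTT in the sites, which run from 10 bases before to 10 after the match. The mature sequences are from RefSeq on GRCm38.p6, at chr7:3220691-3220712 and chr3:127545275-127545297 of the plus strand, and the sites are from Gencode transcripts.
mmu-miR-294-3p: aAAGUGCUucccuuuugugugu
mmu-miR-302b-3p: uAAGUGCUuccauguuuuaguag
*Mycn* site at base 861 of the 3′ UTR: gcaccttagaGCACTTtgaaatacct
*Mga* site at base 486: tgtaattccaGCACTTagaagactaa
*Mga* site at base 1788: caggtcatcaGCACTTaacctttcct
*Mga* site at base 4136: tttgaagaaaGCACTTttaagggtcc
The 3′ UTR of *Mycn* has 913 bases and holds 1 such site, and that of *Mga* has 4616 bases and holds 3. All 4 are preceded by A, which extends the match to AGCACTT, found in 14.6% of 20996 genes, whereas GCACTT was found in 28.4%. No GCACTT was found in the 3′ UTRs of *Myc* (466 bases), *Mycl* (1970 bases) and *Max* (1299 bases). The median 3′ UTR of the genes searched had 954 bases. The AU-rich motif TATTTAT was found once each in *Mga* and *Max* and in 27.5% of genes. Of the members with sites, *Mycn* rose and *Mga* fell in stability, although the *Mga* call was lost under several alternatives given below. What part the sites have in either change was not tested.

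*Mycl* (ENSMUSG00000028654, plus strand, chr4:122995944-123002485) encodes L-MYC and showed the largest change of the 5 members. Its promoter (chr4:122995681-122995980, plus strand, GRCm38.p6) is shown as that of the member with the largest fall in nascent RNA, and it held no match to the E-box or to either E2F motif.
*Mycl* promoter: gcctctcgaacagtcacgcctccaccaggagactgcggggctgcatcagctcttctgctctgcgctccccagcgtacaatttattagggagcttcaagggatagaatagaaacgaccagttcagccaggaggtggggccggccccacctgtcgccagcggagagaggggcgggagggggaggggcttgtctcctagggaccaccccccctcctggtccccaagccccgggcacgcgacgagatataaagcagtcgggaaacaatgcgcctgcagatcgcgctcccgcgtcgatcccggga
In 4sU RNA *Mycl* was at 31.5, 26.9 and 25.7 CPM in wild type and at 5.46, 6.11, 5.81 and 2.80 CPM in *Ddx6* KO. The lowest KO culture rests on 10 counts, against 77 to 80 counts in the wild-type libraries. The nascent log2 fold change of -2.69 ± 0.19 (adjusted p = 7.5e-18) was the 41st lowest of 14518 genes and equals a 6.45-fold lower level. In total RNA *Mycl* was at 35.6, 37.9 and 37.0 CPM in wild type and at 7.95, 8.47, 8.96 and 8.04 CPM in KO. All 4 KO cultures were again below all wild-type cultures, with a log2 fold change of -2.29 ± 0.13 (adjusted p = 1.6e-22), the 92nd lowest. The log2 total-over-4sU ratio was 0.15, 0.47 and 0.51 in wild type and 0.54, 0.46, 0.63 and 1.39 in KO. These groups overlapped (exact permutation p = 0.171), and the fitted stability change of 0.40 ± 0.25 was not called (adjusted p = 0.329).

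*Myc* (ENSMUSG00000022346, plus strand, chr15:61985391-61990374) encodes c-MYC and was the member with the fewest counts in total RNA. In 4sU RNA it was at 11.5, 10.8 and 21.1 CPM in wild type and at 19.4, 26.2, 26.4 and 15.1 CPM in *Ddx6* KO. Wild-type culture 3 lay among the KO cultures, and the nascent log2 fold change of 0.36 ± 0.24 was not called (adjusted p = 0.243). In total RNA *Myc* had 2, 7 and 12 counts in wild type and 12, 22, 15 and 6 counts in KO, or 0.349, 1.07 and 1.71 CPM against 1.99, 3.01, 2.04 and 0.965 CPM. One wild-type library was below the floor and the groups overlapped, and the log2 fold change of 0.74 ± 0.46 was not called (adjusted p = 0.189). The ratio of pooled CPM, from 55 counts in KO and 21 in wild type, was 1.88 with a 95% counting interval of 1.12 to 3.27, which leaves out the spread between cultures. Without wild-type culture 3, *Myc* was called in nascent RNA (0.75, adjusted p = 0.0185) and in total RNA (1.29, adjusted p = 0.0376). It was called in neither without wild-type culture 1 (0.23 in nascent and 0.37 in total RNA) or 2 (0.18 and 0.73). The log2 ratio of total RNA over 4sU was -3.89, -2.89 and -3.31 in wild type and -2.95, -2.90, -3.35 and -3.37 in KO. The groups overlapped (exact permutation p = 0.686). *Myc* passed the filter on low counts through its 4sU libraries, and its total RNA lay near the pseudocount, so its place among the ratios of other genes was not read. The mean difference of KO from wild type was 0.22, and -0.04 with a pseudocount of 2 CPM.

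*Max* (ENSMUSG00000059436, minus strand, chr12:76937269-76962201) encodes the shared partner of the family. Its RefSeq promoter held 1 E-box, at -3 from the start, and no E2F match. An unclassified transcript on the same strand, *Gm47218*, lies inside *Max* and had 22 to 49 counts in 4sU and 5 to 14 in total RNA libraries; how counts were divided between them was not tested. In 4sU RNA *Max* was at 37.3, 38.7 and 53.8 CPM in wild type and at 48.2, 60.4, 73.5 and 51.8 CPM in KO. In total RNA it was at 43.3, 42.9 and 44.4 CPM in wild type and at 44.4, 40.2, 47.4 and 42.4 CPM in KO. The groups overlapped in both assays, and neither the nascent change of 0.21 ± 0.12 (adjusted p = 0.168) nor the total change of -0.15 ± 0.10 (adjusted p = 0.21) was called. The log2 total-over-4sU ratio of *Max* was 0.19, 0.13 and -0.28 in wild type and -0.08, -0.56, -0.58 and -0.26 in KO (exact permutation p = 0.171). These groups overlapped too, and the stability change was -0.37 ± 0.16 (adjusted p = 0.133). Wild-type culture 3 again lay within the KO range of 4sU RNA, and without it *Max* was called in nascent RNA (0.41, adjusted p = 0.0158) and in stability (-0.54, adjusted p = 0.0379). *Max* was called in neither without wild-type culture 1 (0.13 in nascent RNA and -0.29 in stability) or 2 (0.14 and -0.30). Scaling by library size alone also called it in nascent RNA (0.42, adjusted p = 0.00404), where that scaling moved the median of all genes from 0.00 to 0.21.

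*Mga* (ENSMUSG00000033943, plus strand, chr2:119897228-119969581) encodes the large MAX partner of PRC1.6, and its annotated exons cover 13931 bases. In 4sU RNA it was at 263, 261 and 282 CPM in wild type and at 378, 401, 442 and 355 CPM in *Ddx6* KO. Every KO culture exceeded every wild-type culture, with a log2 fold change of 0.35 ± 0.06 (adjusted p = 5.8e-06). In total RNA *Mga* was at 599, 604 and 606 CPM in wild type and at 670, 667, 716 and 715 CPM in KO. These values did not overlap either, yet after TMM scaling they did, at 638 to 655 in wild type and 641 to 695 in KO, and the fitted change of 0.04 ± 0.05 was not called (adjusted p = 0.54). With TMM within each assay it was 0.13 (adjusted p = 0.0343). The log2 total-over-4sU ratio of *Mga* was 1.17, 1.19 and 1.10 in wild type and 0.87, 0.76, 0.74 and 1.04 in KO. The ratio was lower in every KO culture (exact permutation p = 0.0571), and the stability change of -0.30 ± 0.08 was called (adjusted p = 0.00892). That call was lost with TMM within each assay (-0.21, adjusted p = 0.0896), with no filter beyond 1 count (-0.26, adjusted p = 0.053), in clone 2 alone (-0.27, adjusted p = 0.101) and without wild-type culture 2 (-0.28, adjusted p = 0.0691).

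**Figure D2:**
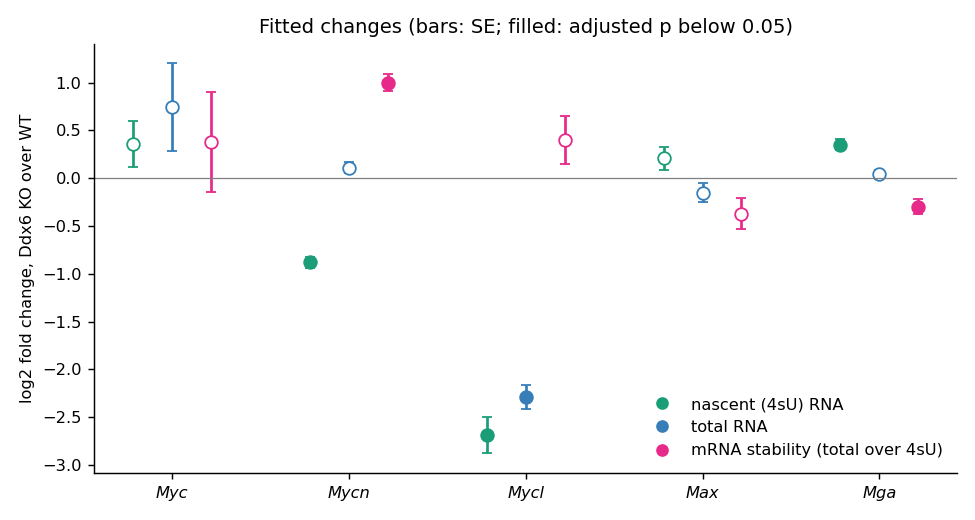
Fitted log2 fold change of *Ddx6* KO over wild type (vertical axis) for each member in nascent RNA, total RNA and stability. Bars are the SE derived from the edgeR test statistic, and filled points have an adjusted p under 0.05. *Mycl* lies near -2.69 and -2.29 in both RNA pools, while *Mycn* lies at -0.88 in nascent RNA, near 0 in total RNA and at 1.00 in stability.

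**Figure D3:**
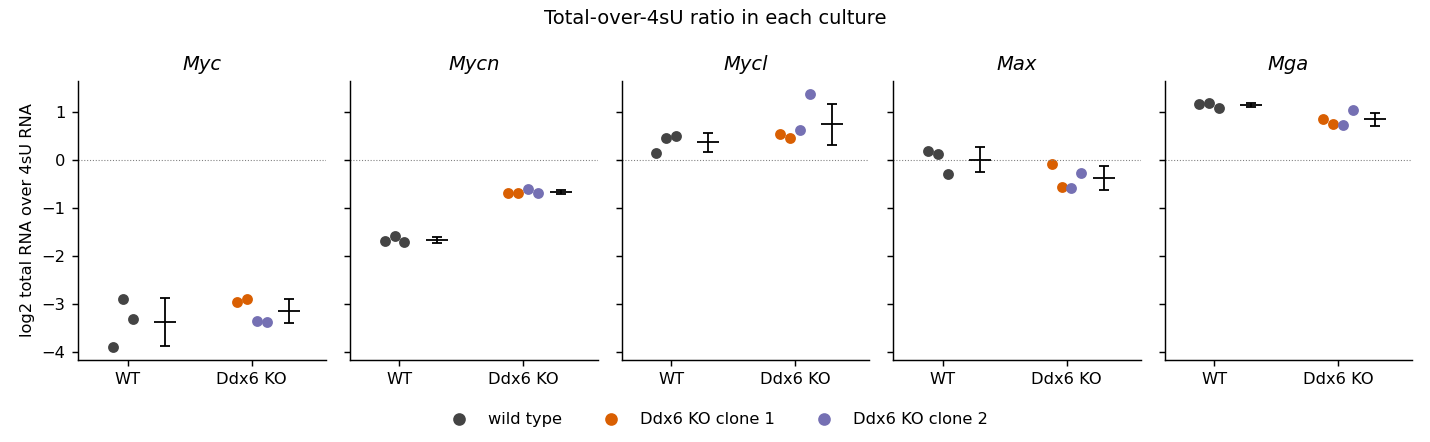
Log2 of total RNA over 4sU RNA (vertical axis, shared) in each culture, with the mean and SD beside the points. *Myc* is lowest at -2.89 or below, *Mga* is highest in wild type, and the wild-type and KO points of *Mycn* and *Mga* do not overlap.

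The 2 *Ddx6* KO clones were compared with each other as a check of the KO values. No member differed between clones in nascent RNA, total RNA or stability (adjusted p from 0.866 to 1), where 0.172%, 0.296% and 0.00689% of tested genes were called. The log2 difference of clone 2 from clone 1 in *Mycn* was -0.04 ± 0.08 in nascent RNA and 0.00 ± 0.08 in total RNA. For *Mga* it was 0.03 ± 0.08 and 0.10 ± 0.07. The intervals were wide for *Mycl* in nascent RNA (-0.46 ± 0.37) and for *Myc* in total RNA (-0.71 ± 0.52), so that clone differences of that size were not resolved. *Ddx6* itself was 2.81-fold lower in clone 2 than in clone 1 in total RNA (adjusted p = 1.0e-15).

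Levels of different members were compared per length, as CPM per kilobase of the deposited gene length (RPKM). In wild-type 4sU RNA, *Mycn* led with 106 ± 5.48 RPKM (SD, n = 3), which was 4.79 times *Max* (22.1 ± 4.69), followed by *Mga* (19.3 ± 0.84), *Mycl* (7.68 ± 0.84) and *Myc* (5.90 ± 2.35). *Max* overlapped with *Mga*, and *Mycl* with *Myc*, so the order within these pairs was not resolved. In wild-type total RNA the order was *Mga* (43.3 ± 0.25 RPKM), *Mycn* (33.6 ± 0.96), *Max* (22.2 ± 0.39), *Mycl* (10.1 ± 0.30) and *Myc* (0.426 ± 0.278), with no overlap between neighbors. In *Ddx6* KO 4sU RNA, *Mycn* again led with 66.2 ± 1.15 RPKM (SD, n = 4), *Max* (29.9 ± 5.75) and *Mga* (28.3 ± 2.66) overlapped, and *Myc* (8.90 ± 2.25) stood above *Mycl* (1.38 ± 0.416) without overlap. In KO total RNA the order was that of wild type, with *Mga* at 49.7 ± 1.96, *Mycn* at 40.6 ± 0.91, *Max* at 22.3 ± 1.56, *Mycl* at 2.28 ± 0.13 and *Myc* at 0.817 ± 0.341 RPKM.

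Among *Myc*, *Mycn* and *Mycl*, the summed 4sU level was 119 ± 7.41 RPKM in wild type and 76.5 ± 3.31 in *Ddx6* KO, whereas the summed total RNA level was 44.1 ± 1.49 and 43.7 ± 1.29 RPKM. These sums are scaled by library sum. With the TMM factors of the fit, a choice made after seeing the data, the sum in total RNA was 45.2 to 48.7 RPKM in wild type and 40.6 to 43.5 RPKM in KO, without overlap, and the sum in 4sU RNA was 123 to 138 against 68.2 to 75.8 RPKM. The shares of the sum within a library are the same under either scaling. *Mycn* held 76.7%, 76.0% and 76.0% of the summed total RNA in wild type and 93.1%, 92.1%, 92.7% and 93.9% in KO. *Mycl* held the greater part of the remainder, 22.8 ± 0.304% in wild type and 5.23 ± 0.176% in KO. The *Mycn* share differed in total RNA by 16.7 percentage points without overlap, at the smallest p the design allows (exact two-sided permutation p = 0.0571, 0.114 adjusted over 2 tests). In 4sU RNA the *Mycn* share was 88.7%, 89.6% and 87.7% in wild type and 87.5%, 84.6%, 84.1% and 90.4% in KO, and the groups overlapped (exact permutation p = 0.343). The shares of the other paralogs in 4sU RNA did not overlap, with *Myc* at 3.88 to 6.75% in wild type and 8.54 to 13.9% in KO, and *Mycl* at 5.52 to 7.35% and 1.06 to 2.09%. Per unit of *Max*, the 3 paralogs together had 5.51 ± 0.784 times its 4sU level in wild type and 2.62 ± 0.415 times in KO. The same quotient in total RNA was 1.99 ± 0.0682 and 1.97 ± 0.150.

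**Figure D4:**
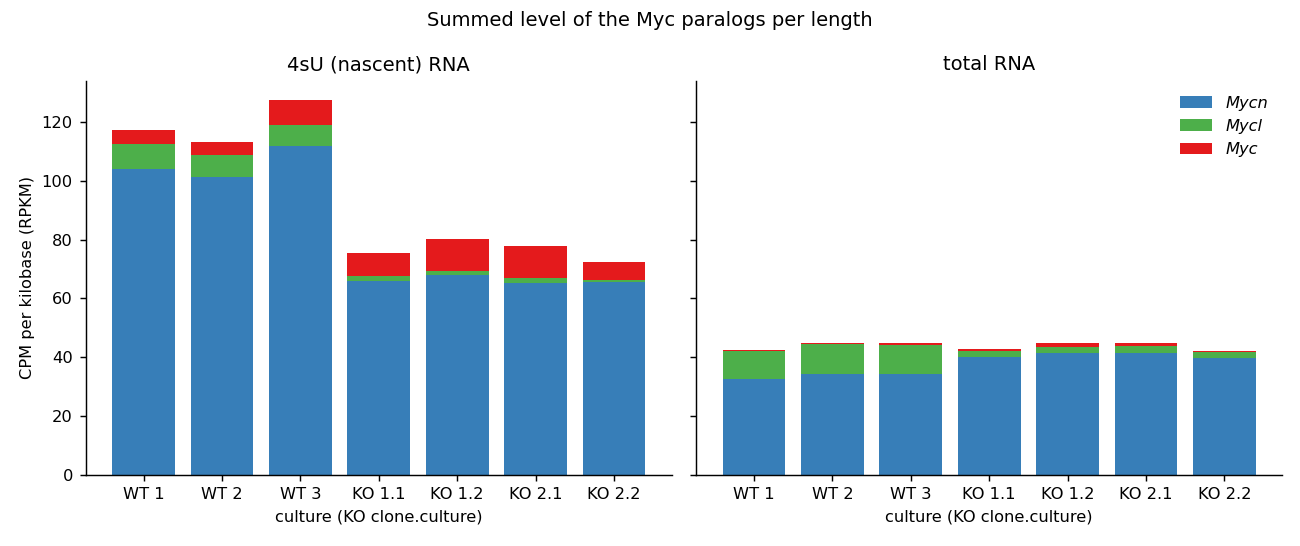
Stacked level per length (vertical axis, RPKM scaled by library sum, from 0) of *Mycn*, *Mycl* and *Myc* in each culture, in 4sU RNA (left) and total RNA (right). The stacks of 4sU RNA are lower in KO, 72.4 to 80.2 against 113 to 128, while those of total RNA lie between 42.3 and 45.0 in all 7 cultures with a thinner *Mycl* part in KO.

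The 5 lists of genes around the family described next were chosen by known role, but with earlier results of these data known. Of 10 genes of the MAX network, 9 were tested, and *Mycs* was not (at most 1 count in any library). In nascent RNA 3 rose and 1 fell, in total RNA also 3 rose and 1 fell, and none was called in stability. Of all tested genes, 20.6% rose and 21% fell in nascent RNA, and 19.5% rose and 31% fell in total RNA. In stability 3.79% of them rose and 8.58% fell. Library size as the only scaling called 6 as higher in nascent RNA, and the re-sequencing run alone called 0. Those settings called 5285 and 1908 of all 14518 tested genes as higher, beside 2984 in the fit above. The list median was 0.24 in nascent and 0.08 in total RNA, beside 0.00 and -0.10 over all tested genes. *Mxd4*, a repressive partner of MAX, was at 1.01 to 1.64 CPM in wild-type and 3.55 to 5.16 CPM in KO 4sU RNA. It reached the 3 CPM of the filter in 0 wild-type and all 8 KO libraries, so that it was tested only because it was high in KO, and its calls (1.55 ± 0.46 in nascent and 1.5 ± 0.31 in total RNA) follow in part from that. The list counts and medians above include *Mxd4*. *Mxd1*, of the same group, rose by 0.62 ± 0.21 and 1.18 ± 0.25. *Mlxipl*, which encodes the glucose-responsive factor ChREBP and pairs with MLX, rose by 0.71 ± 0.21 and 0.76 ± 0.21. *Mxi1*, another MXD repressor, fell by 0.73 ± 0.11 in nascent and by 0.91 ± 0.09 in total RNA. The repressive partners called as higher were *Mxd4*, with the limit above, and *Mxd1*, which lies on chromosome 6, described below. No common direction of the repressive partners is read from these calls. The others had nascent log2 fold changes of -0.21 for *Bmyc*, 0.04 for *Mxd3*, 0.16 for *Mnt*, 0.24 for *Mlx* and 0.30 for *Mlxip*, none of them called.

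*Mxd1* lies on chromosome 6, as do *Rybp*, *Cbx3*, *Ruvbl1* and *Tuba3a* of the lists below. The 735 tested genes of that chromosome had a median log2 fold change of 0.53 in nascent and 0.43 in total RNA. The part of this shift in those 5 genes, and in the ESC marker *Nanog* of the same chromosome, was not tested. No Myc family gene lies on chromosome 6, and the medians of chromosomes 2, 4, 12 and 15, which hold the members, were between -0.09 and 0.01 in nascent RNA.

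All 12 PRC1.6 partners of MGA were tested. In nascent RNA 2 rose and 0 fell (median 0.11), in total RNA 3 rose and 2 fell (median -0.02), and in stability 0 rose and 2 fell (median -0.11). The counts of genes that rose are close to the 20.6% and 19.5% of all tested genes that rose in nascent and total RNA. Of all tested genes, 21% fell in nascent RNA, 31% in total RNA and 8.58% in stability, where 3.79% rose. *Yaf2* (0.78 ± 0.23) and *Rybp* (0.34 ± 0.08), related adaptor subunits of PRC1, rose in nascent RNA. *Rybp* (0.42 ± 0.09), *Cbx3* (0.37 ± 0.10), a heterochromatin protein, and *E2f6*, a repressive E2F (0.32 ± 0.11), rose in total RNA. *Wdr5*, a WD40 scaffold, fell by 0.43 ± 0.06 in total RNA and by 0.50 ± 0.09 in stability, and the deacetylase *Hdac2* fell by 0.19 ± 0.06 and 0.28 ± 0.09. *Pcgf6* (-0.03 ± 0.06) and *L3mbtl2* (-0.06 ± 0.06), defining subunits of the complex, were not called in total RNA. Scaling by library size alone called 9 of the 12 as higher in nascent RNA, with the list median then 0.32 beside 0.21 for all genes. That scaling called 5285 of all 14518 tested genes as higher.

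Of 10 germline genes, 9 were tested, *Tex101* being too low. In nascent RNA 3 rose and 0 fell, in total RNA 7 rose and 0 fell, and in stability 2 rose and 0 fell, with medians of 0.49, 0.93 and 0.37 beside 0.00, -0.10 and -0.09 over all tested genes. Of all tested genes, 20.6%, 19.5% and 3.79% rose in these contrasts, and 21%, 31% and 8.58% fell. Library size as the only scaling called 6 as higher in nascent RNA, and 5285 of all 14518 tested genes. Among the 9, *Taf7l* and *Slc25a31* reached the 3 CPM of the filter in 0 wild-type libraries, so that they were tested only because they were high in KO, and their calls follow in part from that. The counts of genes that rose and the medians above include both genes, so these too follow in part from that selection. *Ddx4*, the germ cell helicase, rose by 2.08 ± 0.27 in nascent and 1.81 ± 0.12 in total RNA, where wild type had 12.3 ± 0.431 CPM (SD, n = 3) and KO 48.3 ± 2.66 CPM (SD, n = 4). *Taf7l*, a germ cell TFIID subunit, had 0 to 4 counts in wild-type and 10 to 20 in KO 4sU RNA, and 5 to 8 against 42 to 66 counts in total RNA. *Slc25a31*, a germline ADP/ATP carrier, had 1, 1 and 3 counts in wild-type total RNA and 49 to 62 counts in the KO libraries. The ratio of its pooled CPM was 31.9, with a 95% counting interval of 13.5 to 99.4. That interval leaves out the spread between cultures and the selection of *Slc25a31* through its KO libraries. *Stag3*, a meiotic cohesin subunit, rose by 0.49 ± 0.10, 0.93 ± 0.07 and 0.44 ± 0.13 in nascent RNA, total RNA and stability. *Dazl*, a germ cell RNA-binding protein, was at 40.8 ± 4.45 CPM in wild type and 44.0 ± 9.75 CPM in KO total RNA and was not called.

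All 11 MYC cofactors and turnover genes were tested. In nascent RNA 1 rose and 1 fell, in total RNA 2 rose and 5 fell, and in stability 1 rose and 4 fell, with medians of 0.08, -0.06 and -0.20. Over all tested genes, the shares that rose and fell were 20.6% and 21%, 19.5% and 31%, and 3.79% and 8.58%. With library size as the only scaling, 7 rose and 1 fell in nascent RNA, and the re-sequencing run alone left 1 fall in stability. Of all 14518 tested genes, 5285 rose and 1838 fell with that scaling, and 762 fell in stability in that run. *Aurka*, a kinase that binds and shields N-MYC protein, fell by 1.07 ± 0.08 in nascent and by 0.51 ± 0.07 in total RNA and rose by 0.56 ± 0.11 in stability. The helicase gene *Ruvbl1* rose by 0.92 ± 0.13 in nascent and 0.30 ± 0.09 in total RNA and fell by 0.62 ± 0.16 in stability. Its partner *Ruvbl2* fell by 0.53 ± 0.06 in total RNA and by 0.36 ± 0.10 in stability. *Fbxw7*, the ubiquitin ligase subunit that marks MYC proteins for degradation, rose by 0.33 ± 0.07 in total RNA.

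All 16 MYC target genes were tested, and most were lower in *Ddx6* KO. In nascent RNA 1 rose and 11 fell, and in total RNA 0 rose and 13 fell, with medians of -0.43 and -0.44 beside 0.00 and -0.10 over all tested genes, of which 21% fell in nascent and 31% in total RNA. In stability 2 rose and 1 fell, with a median of -0.05 beside -0.09 over all tested genes. Of these, 3.79% rose and 8.58% fell in stability, and 20.6% rose in nascent and 19.5% in total RNA. *Nop56*, a box C/D snoRNP protein, fell by 0.80 ± 0.05 in nascent RNA and *Odc1*, the first enzyme of polyamine synthesis, by 0.57 ± 0.06. *Cad*, which starts pyrimidine synthesis, and *Ldha*, lactate dehydrogenase, both fell by 0.67 ± 0.05 in total RNA. *Nme1*, a nucleoside diphosphate kinase, rose by 0.30 ± 0.12 in nascent RNA (adjusted p = 0.0351). *Rrs1*, a ribosome assembly factor, and *Nop56* rose by 0.47 ± 0.09 and 0.31 ± 0.08 in stability, and *Cdk4*, the G1 kinase, fell by 0.49 ± 0.09. With library size as the only scaling, 7 fell and 2 rose in nascent RNA, and 9 fell and 3 rose in total RNA. Of all 14518 tested genes, 1838 fell and 5285 rose in nascent RNA with that scaling, and 2814 fell and 4277 rose in total RNA.

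**Figure D5:**
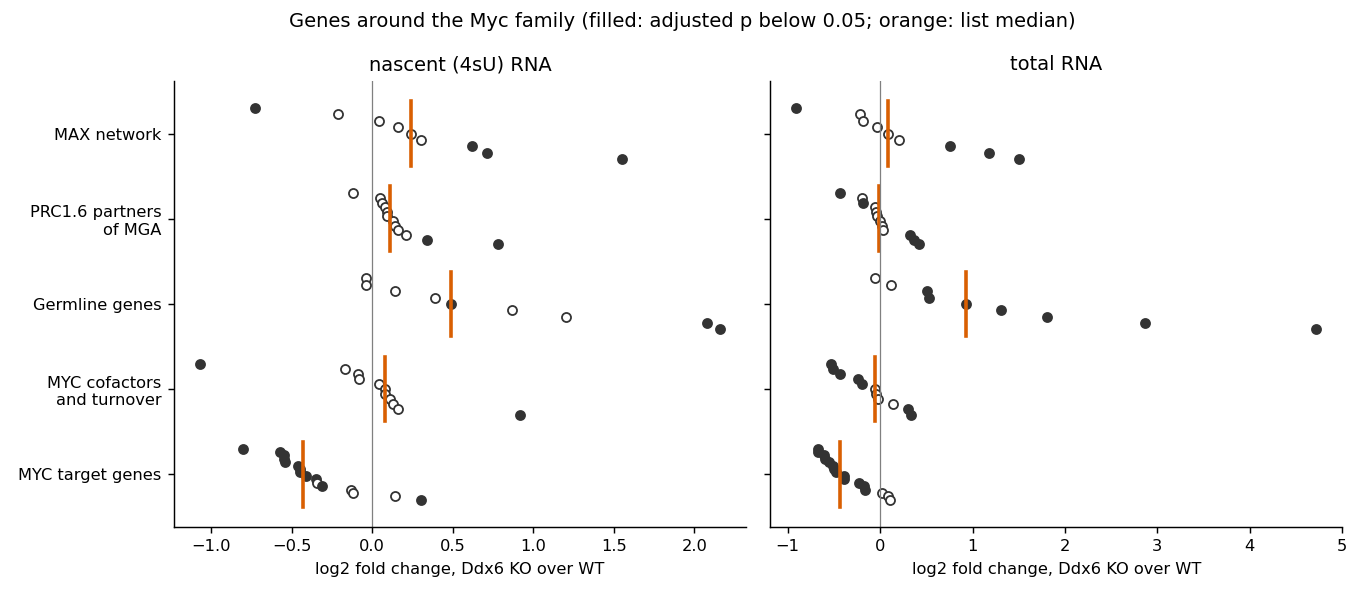
Log2 fold change of *Ddx6* KO over wild type (horizontal axes) for each tested gene of the 5 lists in nascent RNA (left) and total RNA (right); filled points have an adjusted p under 0.05 and orange lines are list medians. MYC target genes lie mostly left of 0 (medians -0.43 and -0.44), and germline genes spread to the right (medians 0.49 and 0.93). The far points are in part *Taf7l* and *Slc25a31*, which were tested only because they were high in KO and which the medians include.

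The genes most like each member over the 14 libraries were sought by Pearson's correlation of TMM-scaled log2 CPM among 10066 genes with a mean of at least 10 CPM. *Mycn* was closest to *Dlc1* (r = 0.99) and *Hist1h2bn* (r = 0.979), both with a positive stability change (0.49 and 1.32). *Mycl* was closest to *Pdlim1* (r = 0.988) and *Fam198b* (r = 0.979), which were lower in both RNA pools, with total RNA log2 fold changes of -1.20 and -1.71. *Mga* was closest to *Zmym4* (r = 0.995) and *Fyttd1* (r = 0.995), with nascent changes of 0.38 each. *Myc* was closest to *Lrif1* (r = 0.983) and *Zfp954* (r = 0.982), and *Max* to *Scai* (r = 0.854) and *Abraxas2* (r = 0.848). These values are descriptions, since the 14 libraries share 2 assays and 2 genotypes, and the assay alone separates many genes.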

How the data were processed

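Nascent (4sU) and total RNA were sequenced from 7 mouse ESC cultures. Per the labels and the study's methods, the authors trimmed reads with cutadapt 1.14, aligned them with STAR 2.5.3a to mm10, kept unique alignments and counted them by strand with featureCounts 1.5.3 on Gencode M14, and they deposited raw counts and gene lengths. The single-end and the re-sequencing run of each 4sU library were summed, as the authors merged them. Spike-in rows (92) held 0 counts and were left out.

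The filter on low counts kept a gene that reached 3 CPM in 3 libraries or more. edgeR 4.0.16 (R 4.3.3) was fitted on the raw counts of all 14 libraries with TMM factors, genotype, assay and their interaction, and the interaction gave the stability change. A fit with both KO clones as groups compared the clones. The SE of a fitted change was derived from the test, as the absolute log2 fold change over the square root of the F statistic. Adjusted p-values are Benjamini-Hochberg values over all tested genes. Exact permutation tests over cultures were made in scipy 1.17.1. Nothing states that cultures were separate derivations beyond the clone, so p-values measure the spread between cultures. In simulated stability changes of 1.5 (log2), 164 of 200 changed genes and 11 unchanged ones among 14518 were called. That size exceeds the fitted stability change of every member, so recovery of changes of their size was not tested. The simulated libraries were drawn independently, without a clone or culture effect. The depth is given per library type above.

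Both libraries of a culture come from the same labeled RNA, which makes them pairs by the labels, and their deviations correlated with r of 0.0035 to 0.125. The fit with the culture as a block changed no stability call of a member. Replicates differed by more than counting noise, with chi-square values per gene of 1.54 to 3.72.

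Lists and members were chosen with earlier results of these data known. From each list and contrast, the called genes with the 2 largest changes in each direction are named, with all of the MAX network, *Ddx6* and the 2 genes most like each member. *Dazl*, *Stag3* in nascent and total RNA, *E2f6*, *Pcgf6*, *L3mbtl2* and the cell type markers named were added after their values were seen. Alternatives were DESeq2 1.42.0, limma-voom (limma 3.58.1), TMM within each assay, library size only, no filter beyond 1 count, no chromosome 6 genes, 1 run at a time, a block for the culture or for the replicate number, 1 clone at a time, leaving out 1 culture at a time, pseudocounts of 0.1 and 2 CPM, and the length of the longest transcript. 3′ UTRs were those of the transcript with the longest 3′ UTR in Gencode M21, which has the genome build of the files, and 4 of 5 members matched the RefSeq promoter table, *Myc* having no entry.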

Additional observations from a re-analysis of the deposited data

Results flagged for a closer look

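In the group of 4 *Ddx6* KO cultures, 1 of 15 sets of member values had a sample apart from the others by Dixon's test: the log2 total-over-4sU ratio of *Mycn* in KO clone 2 culture 1 was -0.603, while the other KO cultures were at -0.68 to -0.69. Chance alone flags about 1 in 20 groups, or 0.75 of 15. No member differed between the 2 KO clones.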

How the results depend on the processing

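The direction of change of every member was the same in all alternatives except 3 values. The total RNA change of *Max* became 0.00 with library size only, and the KO minus wild type ratio of *Myc* became -0.04 with a pseudocount of 2 CPM and without wild-type culture 1 (range -0.04 to 0.46 with a culture left out). Members called in nascent RNA numbered 3, but 4 with library size only and with the replicate number as a block. They numbered 1 with the bound on the fold change, and between 3 and 5 when each culture was left out. Members called in total RNA numbered 1, but 2 with DESeq2 and with the replicate number as a block, 3 with no filter, library size only or TMM within each assay, and 1 to 2 with a culture left out. Members called in stability numbered 2, but 1 with TMM within each assay, no filter or clone 2 only, 0 with the bound on the fold change, and 1 to 3 with a culture left out. Whether the replicate number is a pairing cannot be told from the correlations (mean r = 0.0138 in 4sU and 0.017 in total RNA). Both libraries of a culture, which are pairs by the labels, reached a mean r of only 0.0677. Of 8 KO libraries, 4 correlated best with the wild-type library of their own number. As a block the replicate number added *Myc* in nascent (0.78, adjusted p = 0.0117) and total RNA (1.17, adjusted p = 0.0214). The *Mycn* share difference ranged from 16.4 to 17 points in total RNA and from -3.28 to -1.17 in 4sU RNA. With TMM scaling, chosen after seeing the data, the KO minus wild type difference of the summed paralogs went from -42.9 to -57.5 RPKM in 4sU RNA and from -0.426 to -5.29 RPKM in total RNA.

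Over all genes, the share of called genes that were higher was 49.5% in nascent RNA and 74.2% with library size only. In total RNA it was 38.6%, 50.8% with TMM within each assay, 53.1% with no filter and 60.3% with library size only. In stability it was 30.6%, 56.0%, 45.8% and 20.2% in the same order, and 44.1% with DESeq2. Called genes in stability numbered 1796, but 1142 with the re-sequencing run only, 1093 and 1127 in clone 1 or 2 only, and 1028 and 1180 without wild-type culture 2 or 1. In nascent RNA 6034 were called and 4020 with the re-sequencing run only. *Myc* had at most 22 counts in any total RNA library. The causes were not tested.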
